A study of Homo sapiens with 8 samples.

Results

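Interferon-stimulated genes are genes that cells switch on when interferon binds its receptors. Type I and type III interferons act through receptors that activate the kinases JAK1 and TYK2. Their signal assembles the complex ISGF3, which contains IRF9 and binds interferon-stimulated response elements in promoters, and many of the genes it turns on encode proteins that block viral replication. In B cells, as in most other cells, the set can be raised by interferon, by sensing of foreign or misplaced nucleic acid, or at a low tonic level. A list of 48 such genes was examined on 8 arrays. A gene was represented by the probe set with the highest mean log2 intensity among those annotated with a single symbol. Of the 48, 47 had such a probe set and 45 passed the filter on low intensity, out of 19775 genes with a probe set and 11678 that passed it. HERC5 and LY6E fell below the filter, and STAT2 was not analysed here.

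The arrays measured total RNA of the RL line, established from a human B cell lymphoma. Its genotype label is t(14,18)+, the translocation that brings BCL2 under control of immunoglobulin heavy chain sequences. Multicellular aggregates of these lymphoma cells (MALC) were kept in culture for 14 days. Cells were then sorted by cytometry on their staining with the RNA-binding dye pyronin Y. The 4 cycling arrays held cells bright for pyronin Y, and the 4 quiescent arrays held cells with dull staining. Every group shared the line, the genotype, the culture and its length, and no unsorted group was among the arrays. Titles number the arrays 1 to 4 within each state, so that each number has 1 cycling and 1 quiescent array. The labels do not say what a number marks, nor whether each sample had a culture of its own, so the p-values cover the spread among these samples only, which may be technical. A single cell line stands behind all values.

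The deposited intensities share a scale on which the trimmed mean of every array is about 500.1, while the array medians ran from 72.2 to 114. Medians of log2 intensity were 0.41 higher on the quiescent arrays, so arrays were centred on their medians before log2 differences were taken, and intensities are printed as deposited. Of 10 B cell genes listed as markers of the line, 9 were measured and all 9 passed the filter. Their summed intensity was between 74407 and 89544 on every array, with MS4A1 at 21487 or more. Summed markers of other cells were low on all 8 arrays: 118 to 324 for plasmacytoid dendritic cells with 0 of 5 passing the filter, 198 to 571 for monocytes with 1 of 6, 232 to 520 for T or NK cells with 2 of 7, 351.1 to 582 for fibroblasts with 2 of 6, and 118 to 286 for erythroid cells with 1 of 2. No marker in any of these lists was called across sample numbers. In sorted pools of this kind, fewer cells that express a gene and less RNA per cell cannot be told apart.

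Promoter sequences are shown first, with a search for the core of the response element that ISGF3 binds. RefSeq promoters on GRCh38.p14, from 250 bases before to 50 after a transcription start, were on hand for 39 of the 48 genes. The core of the response element was searched as GAAANNGAAA on both strands, where the reverse strand reads TTTCNNTTTC. At least 1 match was present in 28 of the 39 genes, 71.8%, against 1195 of 27305 genes in the table, 4.38%, and 1255 of 35116 promoters, 3.57%. The 6 stretches below were chosen after the intensities were seen. MX1, IFIT1, ISG15 and IFI44L are genes that followed the sample number, and the neighbours IFITM1 and IFITM3 stood on different sides of the threshold. Each runs 5′ to 3′ on the strand of the gene, from 200 bases before the start to 25 bases from it, in lower case with every match in capitals.
MX1 promoter (chr21:41420358-41420582, plus strand): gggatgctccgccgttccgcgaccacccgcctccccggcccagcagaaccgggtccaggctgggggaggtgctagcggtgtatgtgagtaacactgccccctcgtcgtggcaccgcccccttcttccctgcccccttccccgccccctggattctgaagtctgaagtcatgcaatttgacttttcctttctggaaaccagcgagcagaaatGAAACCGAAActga
IFIT1 promoter (chr10:89392423-89392647, plus strand): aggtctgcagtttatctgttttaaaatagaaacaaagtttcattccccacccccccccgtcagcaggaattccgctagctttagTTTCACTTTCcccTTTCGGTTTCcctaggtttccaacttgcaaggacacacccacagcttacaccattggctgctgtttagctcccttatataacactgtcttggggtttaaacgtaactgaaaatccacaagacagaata
ISG15 promoter (chr1:1013297-1013521, plus strand): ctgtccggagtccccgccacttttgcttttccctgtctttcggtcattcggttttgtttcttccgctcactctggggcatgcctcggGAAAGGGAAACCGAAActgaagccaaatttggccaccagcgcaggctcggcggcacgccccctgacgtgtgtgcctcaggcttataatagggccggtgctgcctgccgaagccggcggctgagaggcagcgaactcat
IFI44L promoter (chr1:78620248-78620472, plus strand): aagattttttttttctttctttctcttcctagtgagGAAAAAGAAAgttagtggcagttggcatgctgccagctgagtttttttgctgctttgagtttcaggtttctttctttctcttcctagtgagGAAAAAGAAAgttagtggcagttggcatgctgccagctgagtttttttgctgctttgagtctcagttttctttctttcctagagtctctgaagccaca
IFITM1 promoter (chr11:313840-314064, plus strand): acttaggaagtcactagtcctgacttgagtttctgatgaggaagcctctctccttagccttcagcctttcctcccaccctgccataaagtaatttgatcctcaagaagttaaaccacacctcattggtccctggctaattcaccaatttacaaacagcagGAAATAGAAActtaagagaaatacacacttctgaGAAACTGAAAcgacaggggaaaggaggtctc
IFITM3 promoter (chr11:320836-321060, minus strand): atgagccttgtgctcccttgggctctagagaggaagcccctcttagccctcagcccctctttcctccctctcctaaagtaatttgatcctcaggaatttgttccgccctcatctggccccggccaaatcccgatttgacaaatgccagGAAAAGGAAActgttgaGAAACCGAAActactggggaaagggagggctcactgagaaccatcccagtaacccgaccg
IFIT1 carried 2 matches on the reverse strand, ISG15 an overlapping pair on the gene strand, and IFI44L a pair inside a repeated stretch. The MX1 stretch belongs to 1 of 3 promoters in the table for that gene. IFITM1 and IFITM3 each carried 2 matches close to the start. Such a match is a description of the letters and not evidence of binding.

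Across sample numbers, 32 of the 45 tested genes were called, 71.1%, against 1.36% of all 11678 genes tested, which is 159 genes. The list was chosen with earlier results of these data known, so this contrast is a description of these arrays. The test was limma's moderated F test of the sample number in a model that also held the sorted state, with Benjamini-Hochberg adjustment over all genes and a threshold of 0.05. The levels were low at number 1, somewhat higher at number 2 and highest at numbers 3 and 4. Of the 20 genes with the lowest p on the arrays 15 were in the list, and of the 50 lowest 26 were. Of the remaining 127 called genes, 85 had their lowest mean at number 1, as did 30 of the 32, and in 21 all 4 arrays of numbers 3 and 4 lay above all 4 of numbers 1 and 2. Among the listed genes that held for 40 of 45 on the centred scale, against 2.25% of all genes tested. In the intensities as deposited it held for 31 of 45, and the share of all genes on that scale is not given here. The calls use a prior variance that follows intensity: without that trend, or without the state in the model, 0 of the 45 and 0 of 11678 genes were called, while in the fit without trend or robust step 43 of the 45 and 1361 of the 11678 had an unadjusted p under 0.05. Without both arrays of number 1, 21 of the 45 were called, and the count was between 24 and 37 when any single array was left out. The shares of all genes called in those fits are not given here.

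**Figure D1:**
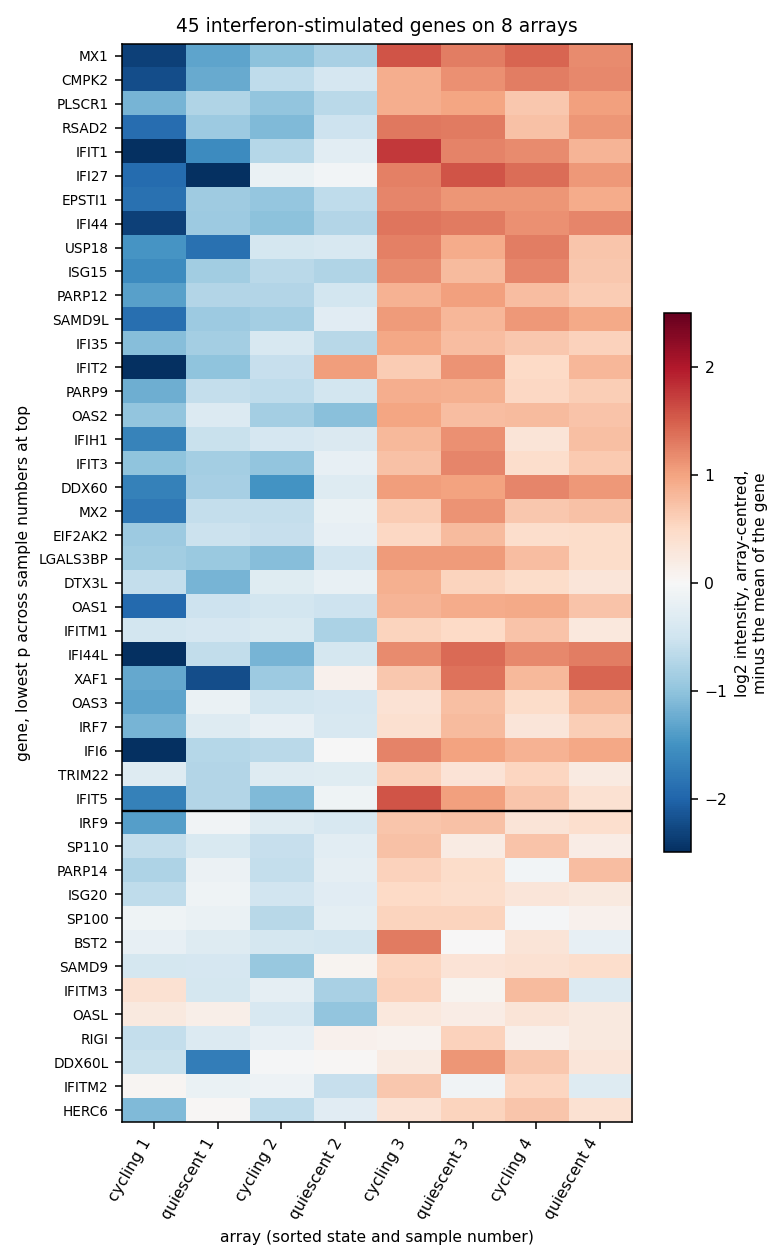
Log2 intensity, centred on each array's median, minus the mean of the gene over the 8 arrays, for the 45 interferon-stimulated genes that passed the filter (colour, log2 units; rows in order of the p-value across sample numbers, columns by sample number and sorted state). The 32 genes above the black line were called, and the arrays of numbers 1 and 2 are mostly blue and those of numbers 3 and 4 mostly red.

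Set against number 1, number 3 was higher by a median log2 difference of 1.90 over the 45 genes, with a median of 0.07 over all genes tested. In that comparison 33 of the 45 were called higher, against 1.15% of all genes, and 0 lower, against 0.0171%, with limma contrasts from the same model. Number 4 exceeded number 1 by a median of 1.58, against -0.04 over all genes, with 30 called higher (0.745% of all genes) and 0 lower (0.12%). All 45 genes had a positive estimate in both of these comparisons, so that 0 had an unadjusted p under 0.05 in the lower direction. Number 3 exceeded number 2 by a median of 1.37, against 0.22, with 20 called higher (0.308%) and 0 lower (0.0171%). Number 4 exceeded number 2 by a median of 1.11, against 0.10, with 11 called higher (0.137%) and 0 lower (0%). Number 2 exceeded number 1 by a median of 0.41, against -0.14, and 5 genes were called higher (1.07%) and 0 lower (1.64%), while 17 were higher and 2 lower at an unadjusted p under 0.05, as were 737 and 1775 of all 11678 genes. Those 5 were CMPK2, IFI27, IFIT1, IFIT2 and USP18. Numbers 3 and 4 were the closest pair: the median difference was -0.14, against -0.12 over all genes, with 0 genes called higher (0%) and 0 lower (0%), and 0 higher and 2 lower at an unadjusted p under 0.05, as were 120 and 218 of all genes. The 6 comparisons share arrays, and with 1 array per state and number the counts rested on single arrays. The counts that follow are of the 45 genes, and shares of all genes are not given for them. Without cycling array 3, 17 genes were called for number 3 over 1 and 0 for 3 over 2; without cycling array 1, 21 for 3 over 1, 14 for 4 over 1 and 1 for 2 over 1. Without cycling array 4, 14 were called for 4 over 1 and 1 for 4 over 2, and without cycling array 2, 2 for 3 over 2, 1 for 4 over 2 and 3 for 2 over 1. Without quiescent array 2, 1 was called for 4 over 2 (5 without quiescent array 4), and without quiescent array 3, 5 for 3 over 2 and 3 for 2 over 1, as many as without cycling array 3. The deposited scaling gave 11 for 3 over 2 and 9 for 2 over 1. Without the trend, 7 or fewer were called in any pair.

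The spread between numbers was large for most of the list. From the lowest to the highest number mean, the median gene moved 3.73-fold, against 1.42-fold for all genes tested. The range reached 2-fold in 36 of 45 genes, against 11% of all genes, and 4-fold in 19, against 0.771%. With readings below the filter's intensity raised to it, 4-fold was reached in 17, without IFIT5 and XAF1, and 2-fold in 34, without DDX60L and HERC6. Number 1 had the lowest mean for 36 genes and number 2 for 9, against 27.1% and 44.7% of all genes. Number 3 had the highest mean for 38 and number 4 for 7, against 38.9% and 13.4%. Cycling array 1 was the lowest of the 8 arrays for 30 of the 45, against 11.1% of all genes. A median of 89.8% of the sum of squares of a listed gene lay between sample numbers, against 31.1% over all genes, and 3.52% between the sorted states, against 38.1%. Number took more than state in 43 of 45, against 47.9% of all genes, the exceptions being IFITM2 and IFITM3. With 4 numbers and 2 states, number has more terms to take up spread.

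**Figure D2:**
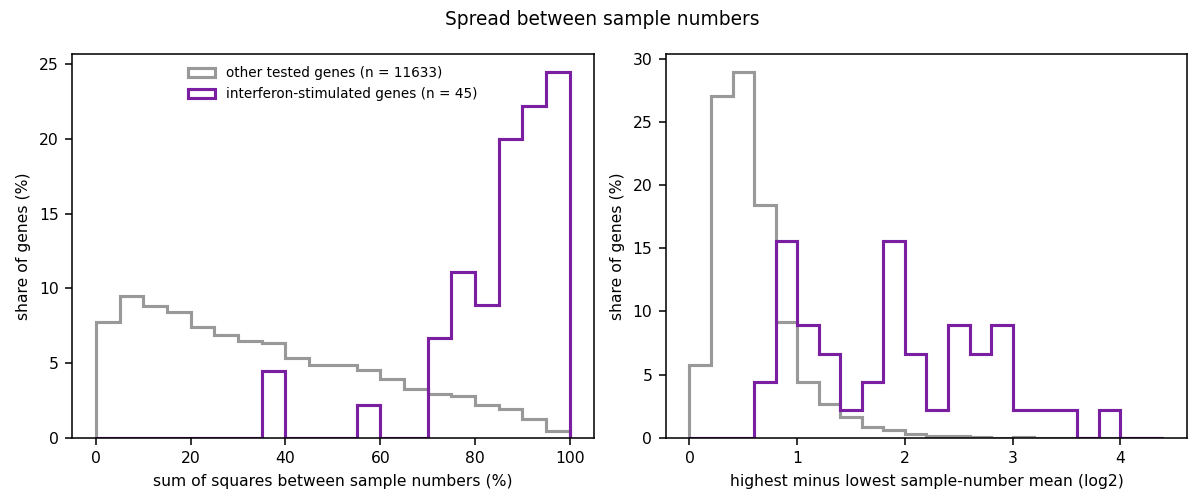
Share of genes (%, vertical axes) by the part of a gene's sum of squares that lies between sample numbers (%, left) and by the difference between the highest and lowest sample-number mean (log2, right), for the 45 interferon-stimulated genes and the other tested genes. The interferon-stimulated genes sit mostly above 70% on the left, with a median of 89.8%, and their range has a median of 1.90 against 0.51 for all tested genes.

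The MX proteins are dynamin-like GTPases that trap incoming viruses, MX1 in the cytoplasm and MX2 at the nuclear pore, where it blocks HIV. In the order of sample numbers 1 to 4, MX1 read 991, 3046, 13579.9 and 13594 (cycling) and 2741, 3950.3, 15888 and 16420.3 (quiescent). MX2 read 93.4, 264, 459 and 509 (cycling) and 289, 397, 925 and 771 (quiescent). For both, each array of numbers 3 and 4 lay above each array of numbers 1 and 2. MX1 had the lowest p of all genes tested and MX2, although dimmer, moved in step. From the lowest to the highest number mean MX1 rose 9.52-fold, with a log2 difference of 3.25 ± 0.27 (SE) between numbers 3 and 1 (adjusted p across numbers 8.29e-05), and MX2 rose 4.24-fold (adjusted p 0.00315).

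The oligoadenylate synthetases make a messenger that activates the nuclease RNase L when they meet duplex RNA, and OASL is a relative without that activity. Through numbers 1 to 4, OAS1 read 542, 1898, 3435 and 4007 (cycling) and 1972, 2016, 5195 and 4929 (quiescent). OAS2 read 381, 519.6, 1367 and 1303 (cycling) and 809, 502, 1686 and 1775 (quiescent). OAS3 read 219, 488, 634 and 741 (cycling) and 656, 559.7, 1199.6 and 1367 (quiescent). OAS1, OAS2 and OAS3 lie side by side on chromosome 12, and all were called, with adjusted p of 0.00676, 0.00104 and 0.0238 and folds of 4.36, 3.55 and 2.60 between number means. In the deposited intensities of OAS3, cycling array 3 lay just below quiescent array 1, so the numbers overlapped there. Of these, OAS2 was the gene whose level at number 2 did not exceed that at number 1. OASL read 339, 268, 309 and 352 (cycling) and 425, 196, 420.3 and 484 (quiescent). Its arrays of number 2 were the lowest and those of numbers 1, 3 and 4 were alike, and it was not called (adjusted p 0.163). A dimmer probe set for OASL gave a log2 difference of 1.42 between numbers 3 and 1 where the brighter gave 0.02 ± 0.28 (SE), so the probe sets disagreed, and the dimmer was not called either (adjusted p 0.226).

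The IFIT proteins bind viral RNA that lacks the host cap methylation or take part in antiviral signalling, and their genes form a cluster on chromosome 10. IFIT1 read 68, 297, 1215 and 882 (cycling) and 179, 448, 1215 and 1016 (quiescent). IFIT2 read 126, 596, 1012 and 999 (cycling) and 487, 2029, 2052 and 1844 (quiescent). IFIT3 read 209, 265, 635 and 568 (cycling) and 317, 504, 1284 and 956 (quiescent). IFIT1 was lowest on the arrays of number 1 and highest at number 3, where its readings in both states were alike. IFIT2 differed from the others in its quiescent array 2, which stood with numbers 3 and 4, so that its groups overlapped. IFIT5 read 37.4, 69.7, 326 and 193 (cycling) and 98.4, 154, 322 and 225 (quiescent). Number 1 was lowest in all 4, and the means spanned 11.8-fold for IFIT1 (adjusted p 1.17e-04), 6.22-fold for IFIT2 (9.85e-04), 3.74-fold for IFIT3 (0.00166) and 5.70-fold for IFIT5 (0.0386). With cycling array 1, which was below the filter's intensity for IFIT1 and IFIT5, raised to it, these spans were 10.6-fold and 3.82-fold. IFIT5 was the called gene nearest the threshold, and IRF9 (0.0573) the nearest that missed it.

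RSAD2 encodes viperin, an enzyme that makes a chain-terminating nucleotide, and CMPK2, its neighbour on chromosome 2, supplies nucleotides in mitochondria. RSAD2 read 143, 306, 1211 and 874 (cycling) and 386, 511, 1726 and 1653 (quiescent). CMPK2 read 139, 515, 1105 and 1545 (cycling) and 363, 659, 1853 and 2123 (quiescent). Both were lowest on cycling array 1 and separated numbers 3 and 4 from 1 and 2 on all arrays. Number 3 exceeded number 1 by a log2 difference of 2.72 ± 0.27 (SE) for RSAD2 (adjusted p across numbers 1.16e-04) and 2.77 ± 0.26 (SE) for CMPK2 (8.29e-05). CMPK2 peaked at number 4 in both states, and RSAD2 at number 3.

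ISG15 is a ubiquitin-like protein that is conjugated to other proteins, a reaction in which HERC5 is the ligase, and USP18 removes it and also restrains the interferon receptor. ISG15 read 1034, 2398, 6387 and 7119 (cycling) and 2288, 2509, 7023 and 7095 (quiescent). USP18 read 102, 256, 617 and 677 (cycling) and 105, 293, 697 and 652 (quiescent). ISG15 and USP18 rose 4.65-fold and 6.77-fold between number means (adjusted p 3.43e-04 and 1.32e-04), with little difference between the states at each of numbers 2 to 4 as deposited. HERC6, a relative of HERC5, read 57.4, 97.8, 143 and 196 (cycling) and 169, 139, 234 and 229 (quiescent). It was lowest on cycling array 1 but its arrays overlapped as deposited, and it was not called (adjusted p 0.297). HERC5, not tested, read 12.8, 20.3, 35 and 10 (cycling) and 47.3, 8.62, 7.67 and 36.6 (quiescent). These intensities lie below the filter of 83.3 and show no order by number.

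**Figure D3:**
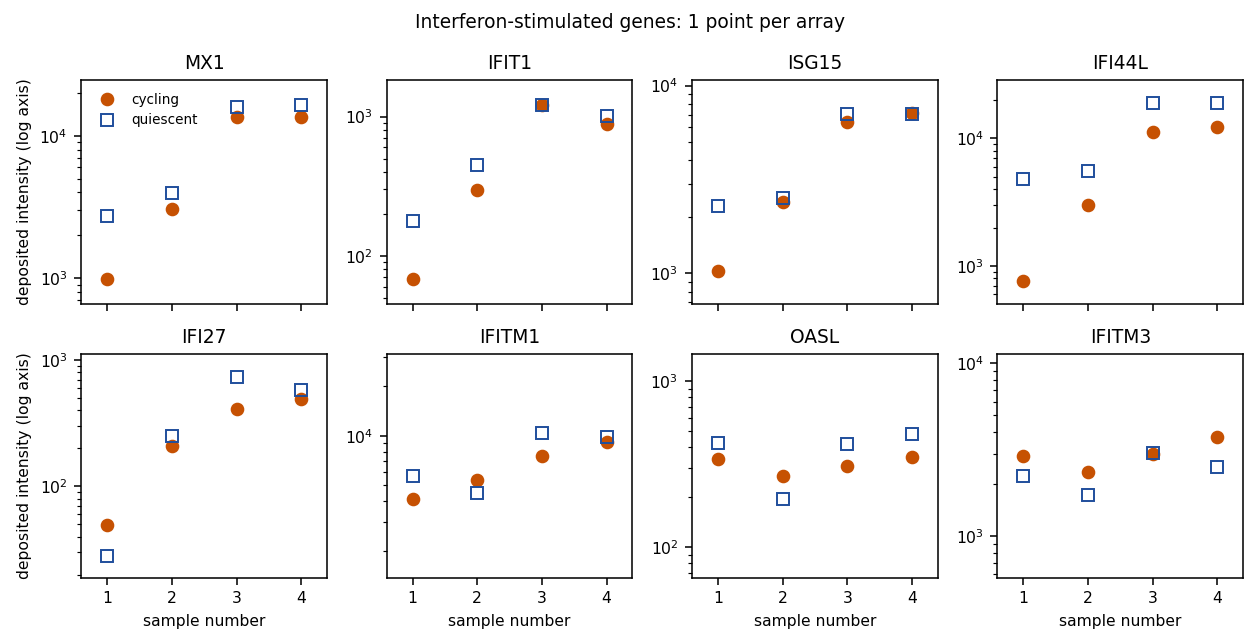
Deposited intensity (log axis) against sample number for 8 interferon-stimulated genes, 1 point per array, filled circles for cycling and open squares for quiescent cells. MX1, IFIT1, ISG15 and IFI44L have number means that differ by between 4.65-fold and 11.8-fold, IFI27 by at least 7.08-fold and IFITM1 by 2.17-fold, while the number means of OASL and IFITM3 stay within 2-fold.

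A further group is named for its induction by interferon. IFI27, a mitochondrial protein, read 49.9, 210.5, 411 and 494 (cycling) and 28.4, 248, 740.0 and 579.9 (quiescent). IFI6, which protects the endoplasmic reticulum from flavivirus replication, read 262, 1321, 3668 and 3081 (cycling) and 1414, 2312, 4466 and 4751 (quiescent). IFI27 was below the filter's intensity on both arrays of number 1 and, with those readings raised to the filter's intensity, rose at least 7.08-fold to number 3 (adjusted p 1.17e-04); at number 1 its quiescent array was the lower, opposite to IFI6. IFI6 spanned 7.10-fold, yet with a wide gap between the states at number 1 its adjusted p was 0.0253. IFI44 read 571, 1764, 6630.2 and 6260.3 (cycling) and 2100.0, 2383, 9336 and 9684 (quiescent). IFI44L, its neighbour on chromosome 1, read 762, 2993, 11204 and 12344 (cycling) and 4796, 5525, 18950.4 and 18858 (quiescent). Both were high at numbers 3 and 4 in either state, spanning 7.67-fold (adjusted p 1.17e-04) and 8.14-fold (0.0103), and IFI44L had the largest ratio between the quiescent and cycling arrays of number 1, 6.29 as deposited. IFI35 read 335, 655, 1234 and 1103 (cycling) and 529, 592, 1564 and 1499.9 (quiescent). XAF1, which promotes apoptosis, read 41.6, 66.9, 148 and 175 (cycling) and 29.8, 149.6, 341 and 398 (quiescent). EPSTI1 read 239, 558, 1866 and 1858 (cycling) and 638, 777, 2459 and 2409 (quiescent). IFI35 had the largest part of its sum of squares between numbers, 98.1%. XAF1 was below the filter's intensity on both arrays of number 1, and its cycling array 3 and quiescent array 2 were alike as deposited. IFI35, XAF1 and EPSTI1 were called, with adjusted p of 9.09e-04, 0.0229 and 1.17e-04. For XAF1 1 of the 2 dimmer probe sets had number 3 below number 1.

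Sensors of foreign RNA come next. IFIH1 encodes MDA5, which binds long duplex RNA, and read 277, 813, 1409 and 1094 (cycling) and 807, 937, 2539 and 2121 (quiescent). DDX60, a helicase linked to that pathway, read 63.9, 90.7, 391 and 476 (cycling) and 157, 229, 541 and 632 (quiescent). EIF2AK2 encodes PKR, the kinase that halts translation on duplex RNA, and read 1769, 2762, 4322 and 4451 (cycling) and 3101, 3911, 7437 and 6514 (quiescent). All of them had numbers 3 and 4 above 1 and 2 on every array, over a 4.27-fold, 5.36-fold and 2.59-fold span (adjusted p 0.00114, 0.00195 and 0.00361). RIGI, the sensor of short triphosphate RNA, did not stand apart in that way: its 8 intensities were between 249 and 734, the means spanned 1.74-fold, and it was not called (adjusted p 0.256). DDX60L, next to DDX60 on chromosome 4, read 53.3, 95.2, 82.7 and 124 (cycling) and 32.3, 109.9, 219.9 and 138 (quiescent). It was lowest at number 1 but dim, and not called (adjusted p 0.265).

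PARP9 and DTX3L share a promoter region on chromosome 3 and act as a complex of an ADP-ribosylation partner and a ubiquitin ligase. PARP9 read 393, 723, 1559 and 1286 (cycling) and 819.5, 908, 2201 and 1995 (quiescent). DTX3L read 598, 906, 1522 and 1220.1 (cycling) and 544, 1091, 1736 and 1596 (quiescent). PARP12, a zinc-finger ADP-ribosyltransferase, read 321, 614, 1364 and 1388 (cycling) and 672, 825, 2199.5 and 1829 (quiescent). In all of these number 3 was highest and number 1 lowest by mean, with spans of 3.49-fold, 3.05-fold and 3.98-fold (adjusted p 0.00104, 0.00676 and 5.16e-04). PARP14, a relative, spanned 1.97-fold between 596 and 2488 and was not called (adjusted p 0.0854). SAMD9L read 121, 306, 855 and 932 (cycling) and 322, 504, 1034 and 1228 (quiescent). Its neighbour on chromosome 7, SAMD9, lay between 360.0 and 1088. Both restrict poxviruses; SAMD9L was called (7.12e-04) and SAMD9 was not (0.138), although number 3 exceeded number 1 by 2.35 ± 0.30 and 0.87 ± 0.28 (log2, SE); the difference between the genes was not tested. PLSCR1, a membrane scramblase, read 986, 1369.5, 3766 and 3452 (cycling) and 1778, 1898, 5679.5 and 6474 (quiescent). LGALS3BP, a secreted glycoprotein, read 119, 128, 413 and 367 (cycling) and 154, 213, 596 and 427 (quiescent). Numbers 1 and 2 were close for both, at log2 differences of 0.12 ± 0.21 and 0.12 ± 0.32 (SE), and numbers 3 and 4 stood above them (adjusted p across numbers 1.16e-04 and 0.00609).

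Among the factors that carry or amplify the signal, IRF7, which drives further interferon transcription, read 469.9, 1141, 1262 and 1285 (cycling) and 1139, 1091, 2390.2 and 2323 (quiescent). IRF9, the DNA-binding subunit of ISGF3, read 319.8, 822, 1212 and 1017 (cycling) and 1054, 856, 1798 and 1587 (quiescent). IRF7 was called over a 2.54-fold span (adjusted p 0.0244), and IRF9, with a like span of 2.72-fold, was not (0.0573); as deposited its cycling array 4 lay just below quiescent array 1. TRIM22, a ubiquitin ligase, read 2288, 2826, 3931 and 4119 (cycling) and 2328, 3189, 4742 and 4781 (quiescent). SP100, a protein of nuclear bodies, read 1735, 1422, 2483 and 1805 (cycling) and 2249, 2149, 3572 and 2879.9 (quiescent). TRIM22 was called with a 2.00-fold span (0.0338), the smallest among the called genes. SP100 was lowest at number 2 and highest at number 3 and was not called (0.089), nor was its relative SP110, between 1851 and 4562 (0.0593). SP110 was called with the deposited scaling (adjusted p 0.0195) and after quantile normalization (0.0186). ISG20, an exonuclease, lay between 1306 and 3581 and missed the threshold as well (0.089).

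Among the membrane proteins IFITM1 was called, while IFITM2, IFITM3 and BST2 were not. The IFITM proteins stop viruses from fusing with endosomes, and IFITM2, IFITM1 and IFITM3 lie side by side on chromosome 11. IFITM1 read 4107, 5384, 7583 and 9189 (cycling) and 5704, 4468, 10437 and 9779.7 (quiescent). IFITM2 read 4791, 5264, 6741 and 6654 (cycling) and 5571, 4273, 5732 and 5354 (quiescent). IFITM3 read 2886, 2335, 2995 and 3753 (cycling) and 2212, 1717, 3008 and 2492 (quiescent). IFITM1 was called (0.00781), with numbers 3 and 4 above 1 and 2 on every array and a 2.17-fold span. IFITM2 and IFITM3 were not (0.288 and 0.146), and their numbers overlapped with both states pooled. Within each state, the arrays of numbers 3 and 4 lay above those of 1 and 2 for IFITM3. For IFITM2 this held on the cycling arrays only. On the centred scale 43 of the 45 genes had this order within each state, against 6.58% of all genes tested. The coding sequences of IFITM2 and IFITM3 are nearly identical. Both probe set names carry the suffix that marks probes able to match more than 1 transcript, so the signal may be shared between these genes. BST2, or tetherin, which holds virions at the cell surface, read 3270.1, 3450.2, 8481 and 4672 (cycling) and 4102, 3800.4, 4988 and 4723 (quiescent). Its cycling array 3 stood far above the rest and it was not called (0.133). LY6E, below the filter and not tested, had intensities from 14 to 70.1.

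Genes that were not called were thus often like the rest in direction. Of the 13, all 13 had number 3 above numbers 1 and 2 by mean. Over all genes tested the median differences were positive as well, 0.07 for 3 over 1 and 0.22 for 3 over 2. In 9, all arrays of numbers 3 and 4 lay above those of 1 and 2 on the centred scale, against 2.25% of all genes tested. As deposited this held for 2 of 13, and the share of all genes on that scale is not given here. The median span of the 13 was 0.98 in log2 units, from 0.65 to 1.79. In the 32 called genes it was 2.17, from 1.00 to 3.97 as measured. The median of the mean intensities was 938 in the called genes and 1198 in the others. A match to the response element core was present in 21 of 26 called genes with a promoter in the table, 80.8%, and in 6 of 11 genes not called, 54.5%. Along the chromosomes 24 of the 48 genes lie in 11 runs of neighbours among protein-coding genes, and in 7 of those runs all members were called. In the other 4 the calls were mixed or missing: IFITM, DDX60 with DDX60L, SAMD9 with SAMD9L, and HERC6 with HERC5.

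For 19 of the genes a further 29 dimmer probe sets passed the filter. Number 3 was above number 1 in 28 of these 29 and number 4 above number 1 in all 29. They measure the same 19 genes on the same arrays, and the shares of all probe sets in these directions are not given here. Across numbers 12 of them were called, against 0.791% of 27307 probe sets tested.

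Further genes of the pathway, from lists chosen with earlier results of these data known, moved less. Of 21 interferon genes 18 had a probe set and 3 passed the filter, and 0 of those 3 were called; IFNB1 was at 16.9 or below on all arrays. Of 9 tested receptor and signalling genes 0 were called across numbers, and of 6 tested interferon regulatory factors outside the list 0. With 1.36% of all genes called, a count of 0 in lists this small says little about them. Between states, quiescent cells had more IFNAR1, by a log2 difference of 0.60 ± 0.19 (SE), and JAK1, by 0.70 ± 0.16, and the direction was the same with each scaling. IFNAR2 (-0.73 ± 0.20) and IFNLR1 (-0.74 ± 0.20) were called lower on the centred scale, and neither was in the deposited values (adjusted p 0.124 and 0.224) or after quantile normalization (0.198 and 0.107). Among 14 tested sensors and adaptors AIM2 was called (0.0425), and among 10 genes that restrain the signal, such as SOCS1 and the PIAS family, 0 were. The list linked to interferon gamma had 4 tested genes and WARS1 was called (0.0479), lowest at number 2. Of 31 further interferon-responsive genes tested, 4 were called, against 1.36% of all genes tested. They were UBE2L6, the conjugating enzyme for ISG15 (0.00257), TNFSF10 (0.0158), LAP3 (0.0244) and LAMP3 (0.0338). UBE2L6 read 444, 909, 1336 and 1354 (cycling) and 665, 775, 1738 and 1665 (quiescent). TNFSF10, which encodes the death ligand TRAIL, read 93.4, 144, 298 and 307 (cycling) and 174, 223, 505 and 479 (quiescent). Both followed the order of the list, low at number 1 and high at 3 and 4. The median log2 range between number means was 0.82 in those 31 genes and 0.35 in the 9 receptor and signalling genes. It was 1.90 in the 45 listed genes and 0.51 over all genes tested.

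The 8-array profile of the called genes, taken as their mean after centring each state, was most alike in TNFSF10 (Pearson r 0.993), PECAM1 (0.993), UBE2L6 (0.992), KMT2E (0.990), IL4I1 (0.988), CD83 (0.987), HHEX (0.986), HERPUD1 (0.984), SPX (0.981) and SLC30A9 (0.980) among genes outside the list. These correlations run over 8 arrays, which share a line and a scaling, and are given as a description. They take no account of the size of a difference. KMT2E (adjusted p across numbers 0.227), SPX (0.172) and SLC30A9 (0.640) were not called, and the number means of SLC30A9 spanned 1.31-fold. OASL was the least alike of the 45, at 0.377.

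Outside the list, HSPA6, an inducible chaperone, had the lowest p across numbers and read 56.5, 1765, 1581 and 1639.8 (cycling) and 117, 1595, 964 and 864 (quiescent). It was low at number 1 and at least as high at number 2 as at 3 and 4, which is not the order of the interferon-stimulated genes. Among the next 9 genes by p, the co-chaperones BAG3 and DNAJB1, the collagen chaperone SERPINH1, and LSMEM1, IER5 and DUSP1 were lowest at number 1 too. SLFN5, itself known to be induced by interferon, had numbers 3 and 4 above 1 and 2, and NFKBIL1 was lowest at number 2. The last of these genes carries a microRNA gene's symbol and is not described.

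Between the sorted states, in a model that leaves out the sample number, few of the listed genes were called. On the centred scale 0 of 45 were called higher in quiescent cells, against 2.80% of all genes tested, and 2 lower, against 32.5%, with limma without covariates; at an unadjusted p under 0.05 the counts were 0 and 2, against 519 and 4582 of all 11678 genes. The 2 were IFITM3, which averaged 2992 ± 584 (SD, n = 4) on the cycling and 2357 ± 539 (SD, n = 4) on the quiescent arrays, and IFITM2, which averaged 5863 ± 984 (SD, n = 4) on the cycling and 5232 ± 658 (SD, n = 4) on the quiescent arrays. Their log2 differences, quiescent minus cycling, were -0.76 ± 0.23 (SE, adjusted p 0.0137) and -0.57 ± 0.20 (SE, adjusted p 0.0314). Both calls depend on the scaling: in the deposited values the differences were -0.35 (adjusted p 0.174) and -0.16 (0.445), and after quantile normalization -0.28 (0.298) and -0.04 (0.850). With the deposited scaling 2 of the 45 were called higher (12.3% of all genes) and 0 lower (15.4%), and after quantile normalization 3 higher (10.5%) and 0 lower (16.4%). Those were RIGI and PARP14 in the deposited values, and ISG20, PARP14 and SP100 after quantile normalization, all of them among the genes not called across numbers. IFITM2 was not called without cycling array 3 or 4 or quiescent array 2 or 4, nor IFITM3 without cycling array 4 or quiescent array 2. The largest difference upward was that of IFIT2, at 0.99 ± 0.85 (SE), with an adjusted p of 0.425. In this model the spread between numbers enters the error of each listed gene. The counts change in an alternative fit with the sample number as a block. There 5 were called higher (3.98% of all genes) and 2 lower (38%) on the centred scale. With the deposited scaling 26 were higher (17.1%) and 1 lower (19.1%), and after quantile normalization 27 (14.9%) and 0 (20.2%).

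The median state difference of the 45 genes was 0.25, against -0.33 over all genes tested, with 32 above 0 and 13 below. With the deposited scaling the medians were 0.66 and 0.08, and 42 of the 45 were above 0. On the centred scale the median of the 45 was 0.62 at number 1, 0.28 at number 2, -0.03 at number 3 and -0.09 at number 4. For all genes tested the corresponding medians were -0.32, -0.18, -0.44 and -0.49. The signed difference, quiescent minus cycling, took its most positive value at number 1 for 26 of the 45, against 23.8% of all genes. Cycling array 1 was the lowest of the 8 arrays for 30 of the 45. Without that array 21 of the 45 state differences had the other sign. A difference in the state effect between numbers could not be tested, since each number has 1 array per state.

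**Figure D4:**
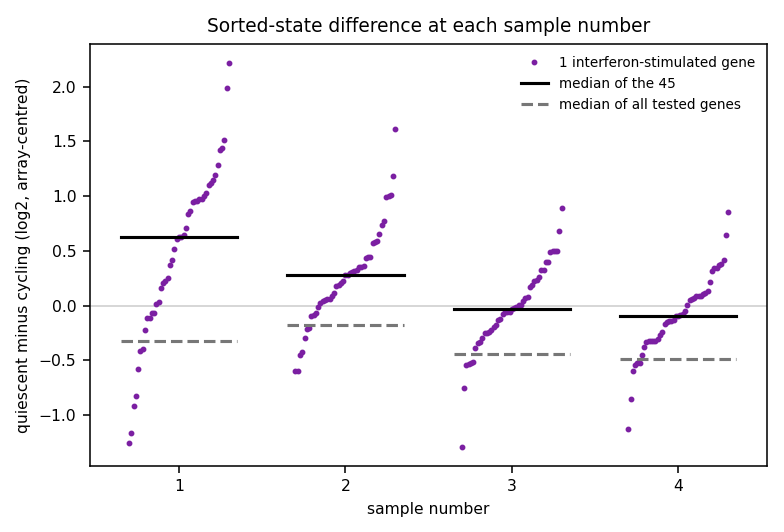
Quiescent minus cycling (log2, array-centred) at each sample number, 1 point per interferon-stimulated gene in order of size, with the median of the 45 (solid) and of all tested genes (dashed). The median of the 45 is 0.62 at number 1 and -0.09 at number 4, and lies above that of all tested genes at each number.

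Measures of RNA quality and array brightness are given by number for comparison. The ratio of 3′ to 5′ signal of ACTB, a sign of RNA breakdown or short labelling, was 2.14, 2.53, 2.21 and 2.28 in log2 units at numbers 1 to 4. It was highest at number 2. It read 1.90 and 1.80 on cycling arrays 1 and 3, and 2.38 and 2.62 on quiescent arrays 1 and 3. For GAPDH it was -0.02, 0.06, 0.07 and 0.03. The ratio of 3′ to middle signal of GAPDH was 0.09, 0.08, 0.00 and 0.02, higher at numbers 1 and 2 than at 3 and 4 by mean, although cycling array 4 (0.05) lay above cycling array 2 (0.03). Mean log2 of the BioB spike-in, a control added to every sample, was 10.80, 10.58, 10.69 and 10.67, and number 1 was the highest. The array medians were 6.53, 6.69, 6.43 and 6.56 in log2 units, with number 3 lowest. With 2 arrays per number these were not tested, and the part of RNA quality and of array brightness in the number differences was not tested either. Between states the ACTB ratio was higher by 0.55 in quiescent cells (two-sided exact permutation test, p = 0.0286, the smallest that 70 assignments allow, adjusted over 9 measures 0.0514), and its part in the state differences was not tested.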

How the data were processed

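Total RNA (30 ng per sample) was hybridised to 8 single-colour Affymetrix arrays with 54675 probe sets, 4 of cycling and 4 of quiescent RL cells. The values are intensities that the authors deposited, made with MAS5 per the submitters' processing notes; no version is given in the sources used. Intensities under 1 were set to 1 and converted to log2, and each array's log2 values were centred on its median. Probe sets were named from the platform annotation, in which 41097 carry 1 symbol and 1801 several. Genes whose mean log2 reached the median of all probe sets (intensity 83.3) were tested. Linear models were fitted in limma 3.58.1 (R 4.3.3) with a robust empirical Bayes prior whose variance follows intensity, with Benjamini-Hochberg adjustment over all 11678 genes and a threshold of 0.05. The number of arrays, 1 per state and number, limits the precision.

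The listed genes, the pathway lists and the rule for named genes were chosen with earlier results of these data known. The rule gave array values for each listed gene called across numbers or between states, for the 6 others with the largest range, and for 13 genes whatever their result. Pathway genes were named where called, as were the 10 genes with the lowest p and the 10 most alike. The tests were tried on simulated data. Alternatives were the deposited scaling, quantile normalization, no filter, a stricter filter, 32 added before log2, the mean of all probe sets, other variance models, no state term, the sample number as a block, and leaving out arrays; the version without number 1 and those changing trend and robust separately were added after seeing the data. Promoters came from RefSeq and figures were drawn with matplotlib.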

Additional observations from a re-analysis of the deposited data

Results flagged for a closer look

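In 90 groups of 4 arrays (45 genes in 2 states), a single array stood apart from the other 3 in 3 cases, judged by its gap to the nearest other array as a part of the group's whole range against Dixon's limit. Chance alone passes it in about 1 of 20 groups. IFIT2 on quiescent array 1, at an intensity of 487, lay below the other quiescent arrays with a gap of 0.864 of the range. OASL on cycling array 2, at 268, and on quiescent array 2, at 196, lay below the other arrays of their state, with gaps of 0.897 and 0.914. For OASL the array apart was that of number 2 in both states.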

How the results depend on the processing

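The count of 32 genes called across numbers was 33 with the deposited scaling and after quantile normalization, 34 with 32 added before log2, 31 of 35 with a stricter filter, 31 with a trend and no robust step, 25 of 42 with the mean of all probe sets and 23 without a filter. Without the intensity trend, robust or not, and without the state term it was 0, with 43 and 37 of the 45 at an unadjusted p under 0.05. All 32 were also called with the deposited scaling and after quantile normalization. Leaving out each array in turn gave 24 to 37, with 22 of the 32 called every time, and without number 1 the count was 21. The other 10 (DTX3L, EIF2AK2, IFI6, IFIT5, IFITM1, IRF7, LGALS3BP, OAS3, TRIM22 and XAF1) lost the call without at least 1 array. The cause of these shifts was not tested. Counts in this part are of listed genes, and shares of all genes are given only where stated.

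For number 2 over 1, the 5 genes called higher became 9 with the deposited scaling, 8 after quantile normalization, 2 with the mean of all probe sets and 0 without a filter, trend or state term, and 1 to 5 with an array left out. For 3 over 1, 33 became 6 without trend and robust step, 7 with the robust step alone and 0 without the state term, and 17 to 38 with an array left out (lowest without cycling 3). For 4 over 1, 30 became 0 without trend or state term and 14 to 32 with an array left out (14 without cycling 1 or cycling 4). For 3 over 2, 20 became 11, 13, 9 and 3 with the deposited scaling, quantile normalization, the mean of probe sets and no filter, 0 without trend or state term, and 0 to 30 with an array left out (0 without cycling 3). For 4 over 2, 11 became 0 without filter, trend or state term or with the mean of probe sets, and 1 to 13 with an array left out (1 without cycling 2, cycling 4 or quiescent 2). For 4 over 3 every setting gave 0.

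Called higher in quiescent cells were 2 with the deposited scaling, 3 after quantile normalization and 0 to 1 with an array or number 1 left out; called lower were 0, 0 and 0 to 2, and 1 without a filter, with 32 added or without the trend. State differences had the other sign in 10 of the 45 with the deposited scaling, 7 after quantile normalization and 21 without cycling array 1. No called difference changed sign. With the sample number as a replicate block 5 were higher (3.98% of all genes) and 2 lower (38%), with the deposited scaling 26 (17.1%) and 1 (19.1%), and after quantile normalization 27 (14.9%) and 0 (20.2%). Same-numbered arrays deviated together with correlations over 11678 genes of 0.344, 0.196, 0.110 and 0.036 at numbers 1 to 4. Not every pair was over 0.1, so the main state test did not take the numbers to pair the samples. The test across numbers, in contrast, fitted 1 level per number shared by both states. Not every array was most like its own number, cycling 4 being closest to quiescent 3 (0.138). Near background, the signal of HERC5 and LY6E is too low to order the numbers.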
